A study of Mus musculus with 18 samples.

Results

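Spleen transcripts were compared between 2 groups of diabetic animals, A10-FMT mice and STZ-A10 mice. Alginate oligosaccharide (AOS), a product of brown seaweed alginate, was labelled as given to STZ-A10 mice themselves. For A10-FMT mice it was given to the donors of their microbiota. The comparison took the libraries by their labelled treatment and rests on 6 libraries, 3 per group, of the 18 in the series. All 6 came from spleens of ICR mice aged 10 weeks, ICR being an outbred strain, and both groups had received streptozotocin (STZ), which kills pancreatic beta cells. STZ-A10 mice were labelled with STZ and AOS at 10 mg/kg, without further detail of the dosing in the sources used here. A10-FMT mice were labelled with STZ and a microbiota transplant from donors given AOS at 10 mg/kg. According to the methods of the study, the transplanted material was small intestinal content pooled over donors and given by mouth, so the 3 A10-FMT libraries share 1 inoculum. The other groups were untreated mice (Con), AOS alone (A10), STZ alone (STZ) and STZ with a transplant from control donors (Con-FMT). They are set beside the 2 groups here as levels without a test. The labels do not say whether the libraries of a group came from separate animals, so p-values measure the spread between these samples. What was given, how it was given and the pooled inoculum differ together between the 2 groups, and their parts cannot be told apart.

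The spleen filters blood through its red pulp, where macrophages remove aged red cells and, in mice, erythroid precursors still divide, and mounts immune responses in its white pulp of B cell follicles and T cell zones. Glucocorticoids, the stress hormones of the adrenal gland, act on nearly every cell in it through a receptor that switches on a small set of widely shared target genes, among them Fkbp5, Per1, Klf9, Tsc22d3 and Ddit4. Fasting and low insulin switch on a partly shared set, including Pdk4, through FOXO and PPAR factors. The circadian clock drives its own targets, Per1 and Dbp among them, through the E-box, so levels of these genes also depend on the hour of sampling, which is not given in the sources used here.

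The libraries were spleen-like in content: Spic, the factor that defines red pulp macrophages, lay between 36.1 and 64.0 RPKM (reads normalised to transcript length and to the reads mapped in the library) in all 6, and Hba-a1 was at 57613 RPKM or more in each. They did not separate cleanly. By Pearson correlation of log2 values across genes, A10-FMT replicate 2 was closer to STZ-A10 replicates 2 and 3 (0.979 and 0.978) than to its own group (0.971 and 0.937). A10-FMT replicate 3 stood apart, with Cd79a of B cells at 189.92 RPKM, Cd3e of T cells at 4.96 RPKM and 11532 genes at 1 RPKM or more, each below the other 5 libraries. The table gives no read counts, and a rough estimate from the step of low values put all 6 libraries between 12900000 and 14600000 reads.

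Of 12369 genes tested, 782 (6.32%) differed at an adjusted p under 0.05 by limma on log2(RPKM + 1) with Benjamini-Hochberg adjustment, 170 higher (1.37%) and 612 lower (4.95%) in A10-FMT. Without adjustment 4712 genes (38.1%) had p under 0.05, of which 1057 were higher (8.55%) and 3655 lower (29.5%). The difference was below 0 for 69.9% of all genes. The median of all genes was itself lower in A10-FMT, by a log2 difference of -0.20, and the direction split turned on this shift. Higher genes made up 21.7% of calls as deposited, 46.5% of 318 calls after quantile normalization and 57.5% of 670 calls after centring each library on its median. All log2 differences below are A10-FMT minus STZ-A10 on the log2(RPKM + 1) scale, which understates the change of low genes, and are to be read against -0.20.

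The adjusted calls rested on single libraries. No gene passed without A10-FMT replicate 1, A10-FMT replicate 3, STZ-A10 replicate 1 or STZ-A10 replicate 3, although 4394, 2036, 2403 and 5119 genes then had an unadjusted p under 0.05. Without STZ-A10 replicate 2 there were 153 calls and without A10-FMT replicate 2 there were 4828. The calls also drew their estimate of spread from all 18 libraries. When the same test was fitted on the 6 libraries alone, 3 genes passed, which were Pdk4, Npy and Cyp3a11, and 2312 had an unadjusted p under 0.05. Npy and Cyp3a11 reached the minimum of 1 RPKM in A10-FMT alone, so they entered the test through the group where they are high, and only Pdk4 of the 3 reached it in both groups. These limits hold for every gene below that is said to have passed the test.

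Pdk4 and 7 of 22 listed glucocorticoid and circadian genes fell in the spleens of A10-FMT mice. Pdk4, the kinase that shuts pyruvate out of the mitochondrion when glucose is scarce (chr6:5483351-5496309, GRCm38), was at 2.65, 2.31 and 1.45 RPKM in the 3 A10-FMT libraries and at 14.71, 12.13 and 15.3 RPKM in the 3 STZ-A10 libraries. The groups were far from overlapping, and mean RPKM fell 6.57-fold. On the RPKM + 1 scale of the test the fall was 4.84-fold (log2 difference -2.28, SE 0.31, adjusted p = 0.029), with the smallest adjusted p of all genes tested. Pdk4 passed in 13 of 17 other settings and stayed between -2.40 and -2.11 when single libraries were left out. Its mean was 2.14 ± 0.619 RPKM (SD, n = 3) in A10-FMT, beside 2.41 ± 0.620 in Con, 9.39 ± 4.94 in STZ and 3.56 ± 1.61 in Con-FMT. The A10-FMT level thus sat beside that of mice without STZ, and the STZ-A10 level, 14.1 ± 1.69 RPKM, beside the upper end of the STZ group.

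Per1, a clock gene and glucocorticoid target, had 7.49, 7.55 and 7.89 RPKM in A10-FMT and 15.96, 14.4 and 19.41 RPKM in STZ-A10 (log2 difference -1.02, SE 0.18, adjusted p = 0.0302). Klf9, a zinc finger repressor induced by the glucocorticoid receptor, had 3.67, 3.72 and 3.45 against 12.63, 7.59 and 8.76 RPKM (-1.18, SE 0.21, adjusted p = 0.0302). Fkbp5, a chaperone of the receptor that damps its signal, had 9.02, 10.87 and 11.81 against 39.8, 18.25 and 24.76 RPKM (-1.24, SE 0.27, adjusted p = 0.0348). In all 3 genes the A10-FMT libraries lay close together and every one was below every STZ-A10 library. Ddit4, an inhibitor of the growth kinase mTORC1, had 27.2, 23.89 and 19.11 against 64.4, 50.53 and 52.13 RPKM (-1.22, SE 0.26, adjusted p = 0.0348). Nr1d1, the clock repressor REV-ERB alpha, fell by 1.46 (adjusted p = 0.0455), Errfi1, a brake on the EGF receptor, by 1.35 (adjusted p = 0.0477) and Cry2, a clock repressor, by 0.63 (adjusted p = 0.0362).

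Of the 22 tested members of the glucocorticoid and circadian list, 7 passed, all lower (4.95% of all genes were), and 16 had an unadjusted p under 0.05, all lower (29.5% of all genes). In 14 of the 22 the 2 groups did not overlap, all with A10-FMT below, where 23.4% of all genes did the same. The list's median was -0.80 against -0.20 for all genes, and lay between -0.98 and -0.55 when single libraries were left out and at -0.57 after quantile normalization. Members just outside the threshold were Tsc22d3, the anti-inflammatory leucine zipper GILZ, at -0.83 (adjusted p = 0.0554), and Sgk1, a kinase of salt transport, at -0.81 (adjusted p = 0.0545). Dbp, a direct clock output, had -1.19 (adjusted p = 0.0952), while Per2 had -0.01 (adjusted p = 0.967), so not every clock gene was lower. Without A10-FMT replicate 3 Sgk1 was at -0.53 and Dbp at -0.63.

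The levels in the other groups show where the 2 arms lay. Per1 averaged 7.64 ± 0.216 RPKM (SD, n = 3) in A10-FMT and 16.6 ± 2.56 in STZ-A10, with 7.20 ± 1.87 in Con, 15.9 ± 4.05 in STZ and 9.84 ± 1.33 in Con-FMT. Fkbp5 averaged 10.6 ± 1.42 RPKM in A10-FMT and 27.6 ± 11.1 in STZ-A10, with 9.44 ± 0.565 in Con, 22.8 ± 9.59 in STZ and 12.02 ± 2.01 in Con-FMT. For both genes, and for Klf9, the Con-FMT mean was nearer to A10-FMT than to STZ-A10. Ddit4 was nearer to STZ-A10 in Con-FMT, with 23.4 ± 4.07 RPKM in A10-FMT, 41.5 ± 8.03 in Con-FMT and 55.7 ± 7.59 in STZ-A10.

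**Figure D1:**
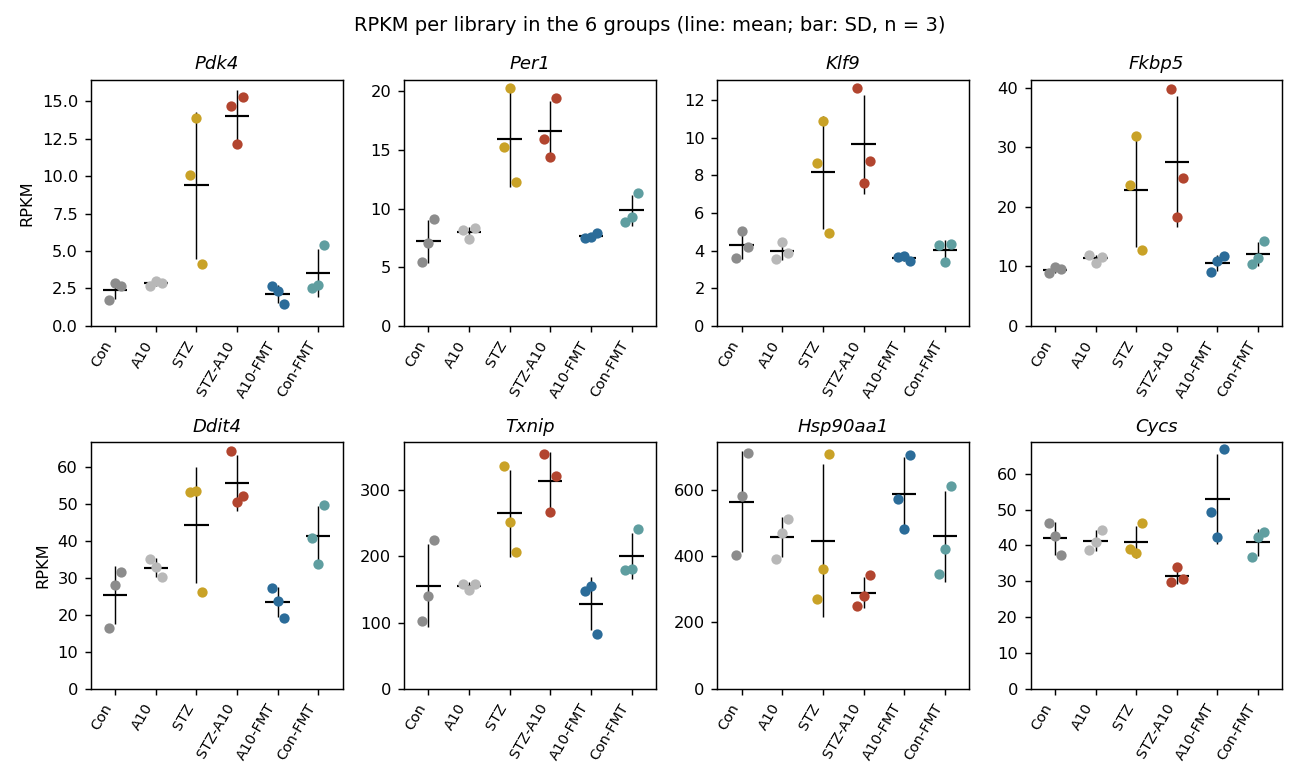
RPKM of 8 genes in every library of the 6 groups, 1 panel per gene with RPKM on the vertical axis; points are libraries, the line is the group mean and the bar its SD (n = 3). Pdk4 lies between 1.45 and 2.65 RPKM in A10-FMT and between 12.13 and 15.3 in STZ-A10, while Cycs and Hsp90aa1 are higher in every A10-FMT library than in any STZ-A10 library.

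Single genes tied to glucose and insulin were lower in A10-FMT, while the median of their list was that of all genes. Txnip, a glucose-induced inhibitor of thioredoxin and of glucose uptake (chr3:96557957-96561883), had 147.05, 155.8 and 81.96 RPKM in A10-FMT and 354.57, 266.79 and 321.94 RPKM in STZ-A10, with no overlap (log2 difference -1.33, SE 0.27, adjusted p = 0.0348). Its mean of 128 ± 40.3 RPKM (SD, n = 3) stood beside 156 ± 62.5 in Con, 265 ± 66.1 in STZ and 200 ± 35.1 in Con-FMT. Txnip overlaps the antisense gene Gm15441, and it is not stated whether the counting used strand. Pik3ip1, which restrains PI3 kinase downstream of the insulin receptor, had 10.2, 13.04 and 4.85 against 34.28, 20.69 and 28.84 RPKM (-1.54, adjusted p = 0.034) and overlaps Gm12592. Insr, the insulin receptor, fell by 0.53 (adjusted p = 0.0475), and the glucose transporter Slc2a1 had -0.66 (adjusted p = 0.069). Over the whole glycolysis and glucose handling list 2 of 25 passed, both lower (4.95% of all genes were), with a median of -0.20, as for all genes. Of the 25, 6 were lower at an unadjusted p under 0.05 by limma (29.5% of all genes). In the fatty acid oxidation list Pdk4 alone of 20 passed, a share near the 4.95% of all genes called lower, with a median of -0.05.

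The promoters of some of these genes hold the letters that the regulators read, and 4 stretches are printed, 5′ to 3′ on the gene's strand, to show the genes the comparison turns on. Sequences are RefSeq's on GRCm38.p6, the motif is in capitals, and positions are counted back from the RefSeq start. Per1 is shown for the E-box CACGTG, 166 to 161 bases before the start (chr11:69098723-69098848, plus strand), and Fkbp5 for the same letters 169 to 164 bases before it (chr17:28486253-28486378, minus strand). Both starts lie inside the longer GENCODE gene. Klf9 is shown for the FOXO motif GTAAACA, 100 to 94 bases before the start (chr19:23141066-23141192, plus strand), and Txnip for the palindromic glucocorticoid response element, GNACA and TGTNC 3 bases apart, 172 to 160 bases before it (chr3:96557725-96557857, plus strand). Capitals mark only the motif named for each gene. The Txnip stretch also holds the FOXO motif in lower case, and the Klf9 stretch holds TGACGT, another motif searched.
Per1: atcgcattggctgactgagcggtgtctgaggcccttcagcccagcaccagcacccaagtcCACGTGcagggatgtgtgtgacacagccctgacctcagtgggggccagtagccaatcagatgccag
Fkbp5: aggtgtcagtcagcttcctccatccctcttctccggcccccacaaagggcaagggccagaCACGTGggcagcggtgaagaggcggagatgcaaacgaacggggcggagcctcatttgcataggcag
Klf9: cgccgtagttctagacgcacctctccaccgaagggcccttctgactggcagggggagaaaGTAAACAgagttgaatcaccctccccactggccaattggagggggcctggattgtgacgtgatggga
Txnip: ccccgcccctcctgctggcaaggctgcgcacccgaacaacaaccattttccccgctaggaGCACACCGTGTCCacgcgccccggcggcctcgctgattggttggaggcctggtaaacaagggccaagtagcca

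Over both strands of the 250 bases before each start, the E-box was in 7 of the 34 windows of the 20 glucocorticoid and circadian genes in the RefSeq table (20.6%) and in 6.02% of all 32851 windows. The glucocorticoid response element was in 2 of the 34 (5.88%) and in 0.387% of all windows, and the FOXO motif in 2 (5.88%) and 3.17%. The letters TGACGT were in 4 of the 34 (11.8%) and in 6.47% of all windows. Pdk4, Ddit4 and Nr1d1 held none of the motifs searched in this window. No window of Per1, Klf9, Fkbp5, Ddit4, Tsc22d3 or Errfi1 held the glucocorticoid response element. The list gathers genes of glucocorticoid and clock response, so its shares describe the choice of genes and not this comparison. The motifs are matches of letters, some genes have several windows that overlap, and no binding was measured.

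Heat shock and mitochondrial genes lay on the other side. Hsp90aa1, the inducible HSP90 chaperone that also holds steroid receptors ready for their hormone, had 573.12, 481.52 and 706.58 RPKM in A10-FMT and 249.75, 278.44 and 342.26 RPKM in STZ-A10. The groups did not overlap, but the difference missed the threshold (log2 1.01, SE 0.30, adjusted p = 0.0545). Hspa1b, an inducible HSP70, had 58.36, 65.23 and 10.74 against 3.61, 3.88 and 7.63 RPKM (2.63, adjusted p = 0.1), and its near-identical neighbour Hspa1a had 23.78, 26.26 and 4.51 against 1.5, 1.52 and 3.56 RPKM (2.34, adjusted p = 0.105), so reads may be split between the pair. A10-FMT replicate 3 was the lowest of its group for both and still above every STZ-A10 library. Hspe1, the mitochondrial co-chaperone, had 265.61, 210.2 and 271.87 against 176.04, 164.95 and 188.93 RPKM (0.49, adjusted p = 0.0535), and its partner Hspd1, which overlaps it, had 0.66 (adjusted p = 0.072). None of the 22 tested members of the heat shock and chaperone list passed by limma, 10 were higher at an unadjusted p under 0.05 (8.55% of all genes) and none lower. In 15 of the 22 every A10-FMT library was above every STZ-A10 library, where 7.7% of all genes did the same. The list's median was 0.60, and 0.50 to 0.71 when single libraries were left out. Heat shock transcripts also varied among untreated mice: the list's mean level minus the mean of all genes tested (log2) was 2.822, 2.575 and 2.719 in A10-FMT, 1.681, 1.652 and 2.148 in STZ-A10, and 2.083, 2.714 and 3.065 in Con.

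The short stretch shared by the Hspe1 and Hspd1 promoters is shown because the pair is read in opposite directions from it. It holds a heat shock element, TTC, GAA and TTC or GAA, TTC and GAA with 2 bases between each, 89 to 77 bases before the Hspe1 start (chr1:55088051-55088079, GRCm38.p6, plus strand), and the capitals run on over another match that overlaps it. The element was in 2 of 24 windows of 18 listed heat shock genes (8.33%), both of them this pair's, and in 0.466% of all windows. This share too describes the choice of genes and not the comparison.
Hspe1: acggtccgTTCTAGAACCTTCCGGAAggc

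Of 36 tested oxidative phosphorylation genes, 7 passed, all higher in A10-FMT (1.37% of all genes were), and 19 did not overlap, all higher (7.7% of all genes). Cycs, cytochrome c, which carries electrons to the last complex of the chain (chr6:50562563-50566538), had 49.35, 42.45 and 66.91 RPKM in A10-FMT and 29.85, 33.92 and 30.52 RPKM in STZ-A10 (log2 0.71, SE 0.14, adjusted p = 0.0348). The others were the complex I subunit Ndufb9 (0.60, adjusted p = 0.0451), the cytochrome oxidase subunits Cox7a2 (0.54, adjusted p = 0.0485) and Cox7b (0.44, adjusted p = 0.0462), and the ATP synthase subunits Atp5o (0.47, adjusted p = 0.039), Atp5h (0.43, adjusted p = 0.0474) and Atp5j (0.40, adjusted p = 0.0465). Without A10-FMT replicate 3 Cox7a2 was at 0.35 and Cox7b at 0.27. Atp5o overlaps Donson. The list's median was 0.27, and 0.15 to 0.36 when single libraries were left out. Mean Cycs was 52.9 ± 12.6 RPKM (SD, n = 3) in A10-FMT and 31.4 ± 2.18 in STZ-A10, and 40.95 to 42.07 in Con, STZ and Con-FMT, so by their means the 2 groups lay on either side of these 3. Ribosomal protein genes had a median of -0.13, and none of 35 passed or reached an unadjusted p under 0.05.

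Lipid synthesis genes split. Scd2, a desaturase of fatty acids, had 14.28, 17.33 and 12.16 RPKM against 39.77, 26.34 and 26.1 RPKM (log2 difference -1.01, SE 0.18, adjusted p = 0.0302), and Srebf1, the factor that drives fatty acid synthesis, fell by 0.51 (adjusted p = 0.0389). A pair of cholesterol enzymes rose instead, with Nsdhl at 13.53, 13.09 and 16.94 against 9.24, 11.19 and 10.11 RPKM (0.47, adjusted p = 0.039) and Cyp51 at 0.51 (adjusted p = 0.0462; 0.33 without A10-FMT replicate 3). These were the 4 of 24 listed genes that passed, 2 lower and 2 higher, where 4.95% and 1.37% of all genes were. The list's median was -0.07. Srebf1 overlaps Rai1, and Cyp51 overlaps Akap9. Pnpla2, the first lipase of fat breakdown, fell by 0.77 (adjusted p = 0.0369).

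Several receptors of macrophages fell in A10-FMT. Csf1r, the receptor that keeps macrophages alive, had 45.83, 44.17 and 37.49 RPKM in A10-FMT and 98.9, 63.97 and 78.07 RPKM in STZ-A10 (log2 difference -0.89, SE 0.15, adjusted p = 0.0302), and its ligand Csf1 had 18.55, 21.24 and 10.96 against 46.21, 35.12 and 29.44 RPKM (-1.11, SE 0.26, adjusted p = 0.0362). Neither overlapped between groups. Other members of the red pulp macrophage and iron list also fell. Lrp1, a receptor for dying cells and proteins, had 6.01, 7.15 and 5.32 against 16.93, 9.76 and 12.68 RPKM (-0.96, adjusted p = 0.0302), and the receptor kinases Mertk and Axl, which recognise dying cells, fell by 0.88 (adjusted p = 0.0348) and 0.81 (adjusted p = 0.0362). The mannose receptor Mrc1 fell by 0.68 (adjusted p = 0.0392), Vcam1, an adhesion molecule, by 0.67 (adjusted p = 0.0462) and the iron exporter Slc40a1 by 0.50 (adjusted p = 0.0494). Csf1r overlaps Hmgxb3.

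Of 29 tested genes of the red pulp macrophage and iron list, 8 passed, 7 lower and 1 higher, where 4.95% of all genes were called lower and 1.37% higher, and 10 of the 29 differences were above 0. The list's median was -0.43. The gene that rose was Hpx, the plasma scavenger of haem, at 3.77, 3.78 and 14.71 against 0.62, 0.26 and 0.1 RPKM (2.44, adjusted p = 0.039). Hpx entered the test through A10-FMT alone. It is made chiefly in liver, and its levels moved with those of the liver transcripts given below, whose part in it was not tested. Spic was at -0.43 (adjusted p = 0.0545) and Hmox1, which breaks down haem, at -0.70 (adjusted p = 0.0561). In bulk spleen, fewer cells of a type and less RNA per cell cannot be told apart. Relative to the mean of all genes tested (log2), the list's mean level overlapped between the groups, at 1.838, 1.722 and 2.13 in A10-FMT and 1.988, 1.71 and 2.019 in STZ-A10.

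Of 24 listed microbial sensors and their signalling partners 5 fell (4.95% of all genes were called lower). Tlr9, which binds unmethylated bacterial DNA, had 6.58, 7.71 and 4.23 RPKM in A10-FMT and 15.75, 12.84 and 10.99 RPKM in STZ-A10 (log2 difference -1.003, SE 0.23, adjusted p = 0.0362). Tlr11, a sensor of profilin and flagellin in mice, had 1.93, 1.8 and 1.21 against 3.79, 3.33 and 3.55 RPKM (-0.79, adjusted p = 0.0302), and its partner Tlr12 fell by 0.76 (adjusted p = 0.0455). Cd14, the lipopolysaccharide co-receptor, had 4.82, 5.86 and 3.59 against 16.37, 6.33 and 9.44 RPKM (-0.95, adjusted p = 0.0394), and -0.62 without STZ-A10 replicate 1. The signalling kinase Irak1 fell by 0.46 (adjusted p = 0.0482). None of the 24 passed as higher. Altogether 19 were lower at an unadjusted p under 0.05 (29.5% of all genes), the median was -0.56, and it lay between -0.69 and -0.38 when single libraries were left out. Mean Tlr9 was 6.17 ± 1.78 RPKM (SD, n = 3) in A10-FMT and 13.2 ± 2.40 in STZ-A10. It was 9.72 ± 2.62 in Con, 13.2 ± 2.64 in A10, 10.9 ± 3.21 in STZ and 10.2 ± 1.30 in Con-FMT.

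Among complement and coagulation genes 2 of 31 passed, both lower, a share near the 4.95% of all genes called lower. C4b, the classical pathway component, had 32.2, 42.25 and 20.33 against 87.28, 61.9 and 58.13 RPKM (-1.14, adjusted p = 0.0348), and the thrombin receptor F2r fell by 0.58 (adjusted p = 0.0433). The list's median was -0.45. Of 18 cytokines Csf1 alone passed, again a share near that of all genes called lower, with a median of -0.33. None of 28 interferon-stimulated genes (median -0.30) and none of 26 immediate early genes (median -0.26) passed, and 4 and 2 of them were lower at an unadjusted p under 0.05, a smaller share than the 29.5% of all genes.

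White pulp and lymphocyte lists had few genes past the threshold, and their medians, except that of the plasma cell list, moved with 1 library. Cxcl12, the stromal chemokine that holds plasma cells and precursors in place, had 177.01, 184.46 and 101.35 RPKM against 387.99, 280.71 and 284.61 RPKM (log2 difference -1.07, SE 0.24, adjusted p = 0.0348). S1pr1, the receptor by which lymphocytes leave the spleen, had 49.96, 54.88 and 22.7 against 120.94, 78.54 and 78.35 RPKM (-1.17, adjusted p = 0.0449), and -0.78 without A10-FMT replicate 3. Ltbr, which organises lymphoid stroma, fell by 0.49 (adjusted p = 0.0428), and these were the 3 of 18 white pulp genes that passed (4.95% of all genes were called lower), with a median of -0.65. Of lymphocyte genes, 3 passed, in each of their lists a share near the 4.95% of all genes called lower. They were the co-stimulator Icos of 30 T cell genes, at -0.62 (adjusted p = 0.0486; -0.38 without A10-FMT replicate 3), and Il2rb of 17 NK and cytotoxic genes, at 13.94, 17.06 and 8.59 against 28.47, 21.59 and 21.9 RPKM (-0.85, adjusted p = 0.0404). The plasma cell factor Prdm1 was the only one of 19 plasma cell genes to pass, at -0.79 (adjusted p = 0.0424). Of these 19, 10 were lower at an unadjusted p under 0.05 by limma (29.5% of all genes) and 2 had a positive difference. In 9 the groups did not overlap, all with A10-FMT below (23.4% of all genes). The plasma cell median was -0.54, and -0.50 without A10-FMT replicate 3. None of 24 B cell genes and none of 12 MHC class II genes passed by limma, and 9 and 4 were lower at an unadjusted p under 0.05, as were 9 of the 30 T cell genes, shares near the 29.5% of all genes. Cr2, the complement receptor of follicular and marginal zone B cells, was at -1.14 (adjusted p = 0.0544).

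The list medians were -0.60 for T cells, -0.70 for B cells and -0.60 for MHC class II. Without A10-FMT replicate 3, the library with the lowest Cd79a and Cd3e, they were -0.14, -0.15 and -0.16, close to the -0.11 of all genes in that setting. The medians of the white pulp list (-0.31) and of the NK list (-0.13) were likewise highest without it, from -0.65 and -0.37. Of 17 dendritic cell genes 3 passed, all lower (4.95% of all genes were), with a median of -0.44. Ly75, the uptake receptor DEC-205, had 1.51, 1.64 and 1.08 against 3.29, 3.21 and 3.1 RPKM (-0.81, adjusted p = 0.0302), Sirpa, which marks one dendritic cell branch and macrophages, fell by 0.78 (adjusted p = 0.0348) and the integrin Itgae by 0.56 (adjusted p = 0.0477).

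Endothelium and stroma were represented among the genes that fell. Of 24 endothelial genes 5 passed, all lower (4.95% of all genes), and 18 were lower at an unadjusted p under 0.05 (29.5% of all genes), with a median of -0.55. The 5 were Tie1 (-0.71, adjusted p = 0.0449) and Mmrn2 (-0.72, adjusted p = 0.0455) of vessel walls, the sinus scavenger receptor Stab1 (-0.64, adjusted p = 0.0443), the VEGF receptor Flt1 (-0.51, adjusted p = 0.0458) and the TGF-beta co-receptor Eng (-0.50, adjusted p = 0.0463), which overlaps Fpgs. Of 29 extracellular matrix and smooth muscle genes 3 passed, all lower (4.95% of all genes), with a median of -0.35. Fn1, fibronectin, had 11.72, 17.97 and 13.34 against 25.93, 28.72 and 21.83 RPKM (-0.80, SE 0.15, adjusted p = 0.0302), the fibroblast receptor Pdgfra had 4.39, 4.65 and 6.1 against 17.59, 9.73 and 11.37 RPKM (-1.17, adjusted p = 0.0348), and Pdgfrb of pericytes fell by 0.90 (adjusted p = 0.0348). Mean Pdgfra was 5.05 ± 0.921 RPKM (SD, n = 3) in A10-FMT and 12.9 ± 4.15 in STZ-A10, beside 4.93 ± 0.841 in Con, 9.91 ± 3.76 in STZ and 5.08 ± 0.941 in Con-FMT.

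Erythroid and cell cycle genes had positive differences in A10-FMT, and few passed. All 35 tested erythroid genes had a positive difference, with a median of 0.81, where 30.1% of all genes were above 0. The only 2 that passed were beta-globin genes (1.37% of all genes were called higher), and 13 were higher at an unadjusted p under 0.05 (8.55% of all genes). In 5 every A10-FMT library was above every STZ-A10 library (7.7% of all genes). Tfrc, which brings in iron, had 211.25, 140.34 and 496.61 against 59.26, 137.57 and 153.11 RPKM (1.18, adjusted p = 0.0847). Both groups were spread, and STZ-A10 replicate 1 was the lowest of the 6. Without that library the erythroid median was 0.38, and without A10-FMT replicate 3 it was 0.55. All 40 cell cycle and DNA replication genes had a positive difference as well, with a median of 0.66 (0.40 without A10-FMT replicate 3). None passed by limma, 28 were higher at an unadjusted p under 0.05 (8.55% of all genes) and 14 did not overlap, all higher (7.7% of all genes). The mitotic cyclin Ccnb1 was at 0.99 (adjusted p = 0.0625) and the kinesin Kif20a, which overlaps Cdc23, at 0.78 (adjusted p = 0.0545).

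**Figure D2:**
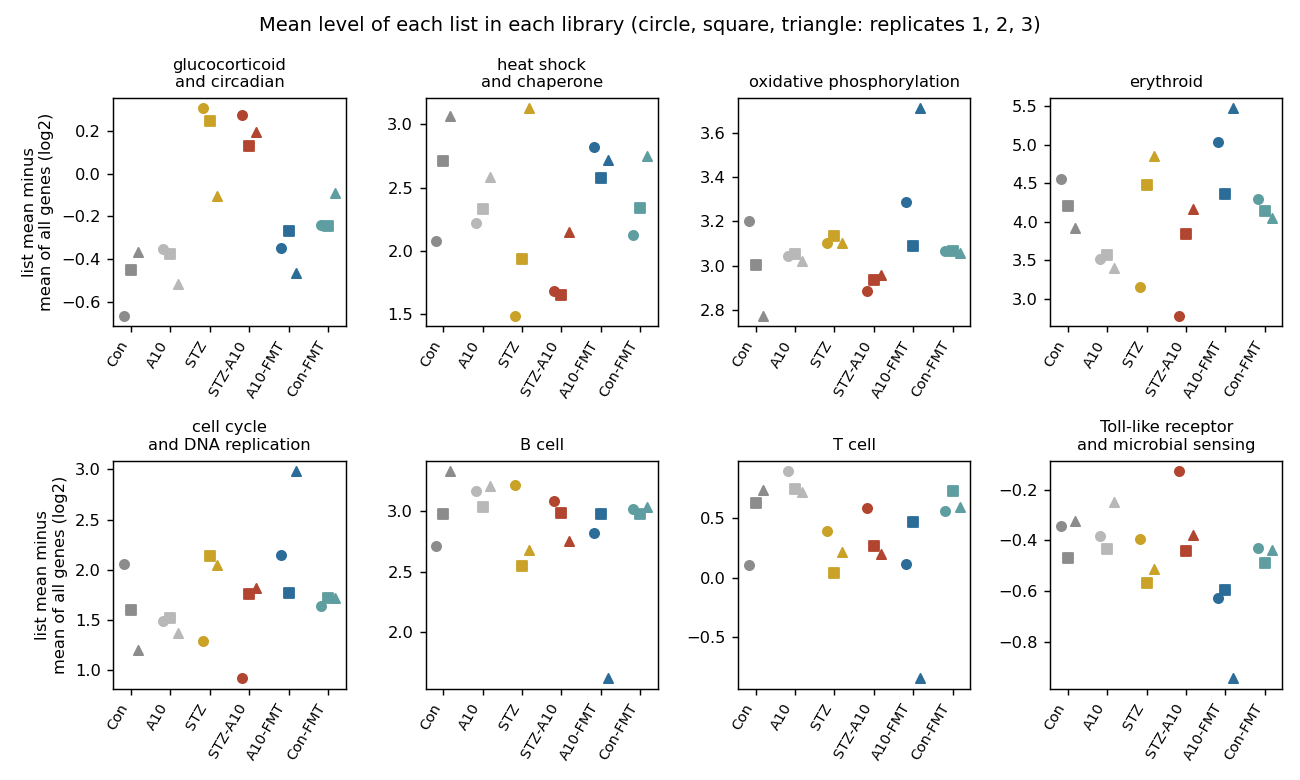
Level of 8 gene lists in each library of the 6 groups, as the mean log2(RPKM + 1) of the list's tested genes minus the mean over all genes tested; circle, square and triangle are replicates 1, 2 and 3. The glucocorticoid and circadian list lies between -0.466 and -0.268 in A10-FMT and between 0.126 and 0.274 in STZ-A10, while the B cell list overlaps, at 1.612 to 2.98 against 2.751 to 3.091.

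One pair of globin genes differed by far more than the rest. Hbb-bs (chr7:103826534-103828096) had 54524.89, 11242.73 and 975.74 RPKM in A10-FMT and 102.04, 15.26 and 5.61 RPKM in STZ-A10 (log2 8.56, SE 1.91, adjusted p = 0.0348), and Hbb-bt (chr7:103812524-103813996) had 12151.54, 2499.22 and 240.85 against 20.78, 7.67 and 11.33 RPKM (7.20, adjusted p = 0.0383). The 3 libraries of A10-FMT spanned over 1 order of magnitude. The other adult beta-globin entries, Hbb-b1 and Hbb-b2, overlapped between the groups. Hbb-b1 had 54444.95, 58726.73 and 124931.33 against 30844.51, 70814.41 and 97521.62 RPKM (0.30, adjusted p = 0.742), and Hbb-b2 was at 0.56 (adjusted p = 0.564). Hbb-bs and Hbb-bt, and Hbb-b1 and Hbb-b2, are near-identical copies that belong to different haplotypes of the locus, the mice are outbred, and reads can be split between copies, so these values are uncertain. What haplotype and read assignment contributed was not tested. Hbb-bs averaged 13430 ± 10260 RPKM (SD, n = 3) in Con, 8091 ± 8087 in STZ and 10890 ± 10140 in Con-FMT. All globin genes together took 39.48%, 28.28% and 42.70% of summed RPKM in A10-FMT and 13.75%, 28.18% and 36.25% in STZ-A10 (two-sided exact permutation test, p = 0.2, where the smallest possible was 0.1).

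Neutrophil and monocyte genes were divided, with a median of 0.68 over 24 genes and none past the threshold by limma. None was higher and 2 were lower at an unadjusted p under 0.05. In 10 of the 24 every A10-FMT library was above every STZ-A10 library, and in 2 below, where 7.7% and 23.4% of all genes were. S100a8, a neutrophil granule protein, had 341.9, 491.26 and 301.62 against 245.92, 182.08 and 136.45 RPKM (1.01, adjusted p = 0.315), and Fcnb, made by neutrophil precursors, was at 1.203 (adjusted p = 0.18), whereas Lyz2 of macrophages and neutrophils was at -0.57 (adjusted p = 0.0876). None of 30 platelet and megakaryocyte genes passed either, with 2 lower at an unadjusted p under 0.05 and a median of -0.10 that changed sign to 0.09 after quantile normalization.

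The p53 and apoptosis list had 2 of 26 genes past the threshold, both lower, beside 4.95% of all genes, and its median of -0.14 was above the -0.20 of all genes. Trp53inp1, a p53 target that also marks autophagy, fell by 0.93 (adjusted p = 0.0348), and Bcl2l11, the BH3 protein BIM, had 12.2, 12.2 and 9.66 against 17.96, 16.18 and 16.56 RPKM (-0.54, adjusted p = 0.0348). The survival gene Bcl2, which overlaps D630008O14Rik, was at -0.81 (adjusted p = 0.0527).

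Of 8 genes listed because the study names an antibody against their protein, none passed by limma in this comparison, and 2 were lower at an unadjusted p under 0.05, Ccl21a and Bcl2. Ccl21a, the T zone chemokine, had 788.19, 1051.07 and 316.94 against 1949.48, 1281.82 and 1006.56 RPKM (-1.09, adjusted p = 0.081), and its receptor Ccr7 was at -0.52 (adjusted p = 0.266). Without A10-FMT replicate 3 Ccl21a was at -0.58 and Ccr7 at -0.008. Cd163, a haemoglobin scavenger receptor of macrophages, had 1.66, 1.57 and 1.98 against 3.8, 1.82 and 2.6 RPKM (-0.42, adjusted p = 0.176). Mki67, a marker of dividing cells, had 203.49, 147.38 and 341.1 against 73.58, 167.18 and 175.16 RPKM (0.74, adjusted p = 0.154). Trp53 (-0.10, adjusted p = 0.579) and Bax (0.01, adjusted p = 0.965) changed sign under other scalings, and Bcl2l1 was at 0.37 (adjusted p = 0.493).

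Transcripts of organs other than spleen were among the largest differences. Of 34 liver genes 29 were tested and 18 passed, all higher in A10-FMT. In 15 of the 29 no library of one group reached the minimum level, so these entered through the group where they are high and had to differ, and neither the count nor the list's median of 2.07 stands as support. Over the liver genes at 1 RPKM or more in all 6 libraries the median was 0.59. Alb, Cyp3a11, Apoa2, Mup10 and Ahsg below reached that level in A10-FMT in all 3 libraries and in at most 1 library of STZ-A10. Alb, serum albumin (chr5:90460897-90476602), had 42.32, 32.58 and 174.72 RPKM in A10-FMT and 2.79, 0.25 and 0.1 RPKM in STZ-A10 (log2 5.19, SE 0.97, adjusted p = 0.0302). Cyp3a11, a liver cytochrome P450, had 11.33, 7.68 and 18.2 against 0.22, 0.07 and 0 RPKM (3.54, SE 0.61, adjusted p = 0.0302). Apoa2, Mup10 and Ahsg followed at 4.64, 4.46 and 3.59 (adjusted p = 0.0302, 0.0408 and 0.0348). The summed RPKM of the liver list was 339.85, 322.85 and 716.42 in A10-FMT and 186.11, 132.75 and 125.02 in STZ-A10 (exact permutation p = 0.1, the smallest possible), beside 476 ± 284 (SD, n = 3) in Con, 144 ± 24.8 in STZ and 183 ± 42.4 in Con-FMT. It was above the STZ-A10 range in every A10-FMT library and highest in replicate 3.

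Exocrine pancreas transcripts were abundant and erratic. Their summed RPKM was 246.15, 30504 and 1600 in A10-FMT and 8202.4, 8809 and 12866 in STZ-A10 (exact permutation p = 1). Prss2, a trypsinogen, had 12.42, 1450.72 and 74.56 against 401.78, 466.78 and 637.61 RPKM (-2.12, adjusted p = 0.313). No gene of 29 passed or reached an unadjusted p under 0.05. The summed level turned on A10-FMT replicate 2, which held more than every STZ-A10 library while the other A10-FMT libraries held less. Of 5 tested Reg family genes, which injured or inflamed pancreas and gut make, 2 passed, both lower (4.95% of all genes were called lower). Reg3b, an antimicrobial lectin (chr6:78370657-78373466), had 0, 4.19 and 0.2 RPKM against 31.21, 39.88 and 79.85 RPKM (-4.69, SE 0.79, adjusted p = 0.0302), and Reg3a had 0, 1.86 and 0.27 against 5.41, 13.98 and 12.87 RPKM (-2.84, adjusted p = 0.039). The other Reg genes tested did not pass. Reg2 had 0.49, 31.45 and 2.51 against 31.56, 62.52 and 95.05 RPKM (-3.40, adjusted p = 0.068). Reg3d had 0.31, 14.97 and 0.59 against 5.01, 5.66 and 12.79 RPKM (-1.35, adjusted p = 0.196), with A10-FMT replicate 2 the highest of the 6, and Reg1 had 3.82, 592.17 and 33.17 against 127.48, 172.68 and 260.45 RPKM (-1.97, adjusted p = 0.304), with the same library highest. What part the pancreas transcripts had in the Reg values was not tested. Reg3b averaged 68.3 ± 80.4 RPKM (SD, n = 3) in STZ, 22.9 ± 12.3 in Con-FMT and 0.587 ± 0.723 in Con.

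The skeletal muscle list summed to 20.59, 17.28 and 21.69 RPKM in A10-FMT and 8.25, 11.02 and 14.31 in STZ-A10 (exact permutation p = 0.1), with Mylpf, a fast muscle myosin light chain, the 1 of 2 tested genes to pass (1.02, adjusted p = 0.048). Mylpf made up most of each sum, at 17.45, 13.06 and 18.98 against 5.14, 7.36 and 11.23 RPKM. The muscle markers Acta1 and Ckm were at 0.82 and 0.37 RPKM at most in the 6 libraries, so the sum does not show muscle. Adipose transcripts overlapped, at 86.99, 177.16 and 120.24 against 183.35, 84.76 and 84.28 RPKM (p = 0.8, exact), with 1 of 10 genes past the threshold, Pnpla2. Kidney transcripts summed to 1.21 RPKM at most in the 6 libraries (p = 0.3, exact), and Kap, the kidney androgen-regulated protein, was at 0.14, 0 and 0 against 0.6, 0.3 and 0 RPKM. Testis germ cell transcripts summed to 3.33, 4.03 and 2.45 against 5.57, 4.79 and 3.37 RPKM (p = 0.2, exact). The 4 tested Y-linked genes, in male mice, had a median of -0.06 with none past the threshold or at an unadjusted p under 0.05. Whether tissue taken with the spleen or transcription in it gave the transcripts of the liver, pancreas and muscle lists was not tested. All lists of other organs were then left out, those of Reg, endocrine pancreas, adipose, testis and kidney genes included, and the adjustment was repeated. With this 710 genes passed, 141 higher and 569 lower. The calls lost from the 782 included genes outside those lists, which no longer passed after the repeated adjustment.

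**Figure D3:**
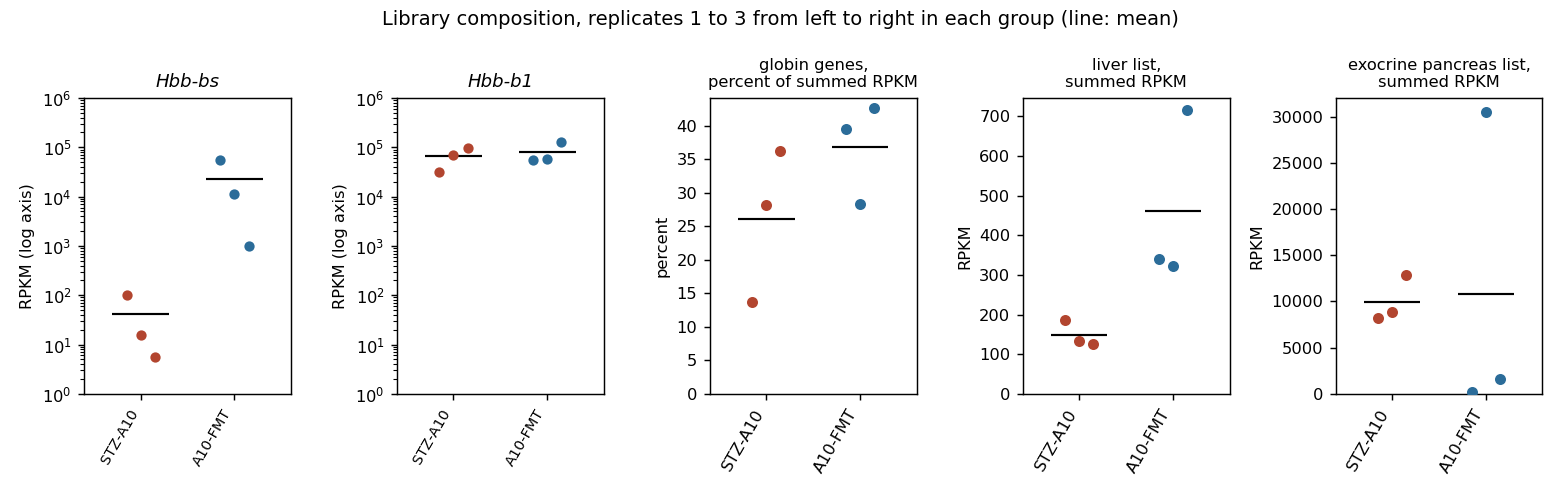
Hbb-bs and Hbb-b1 (RPKM, log axis), the share of summed RPKM in all globin genes (percent), and the summed RPKM of the liver and exocrine pancreas lists in each library of STZ-A10 and A10-FMT, replicates 1 to 3 from left to right. Hbb-bs separates A10-FMT (975.74 to 54524.89 RPKM) from STZ-A10 (5.61 to 102.04 RPKM) while Hbb-b1 does not, and A10-FMT replicate 2 has the highest pancreas sum of the 6 libraries compared, 30504 RPKM.

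A few single genes outside these groups had large differences. Gdpd3, a lysophospholipase D of membrane lipids (chr7:126766334-126775649), was at 0.36, 0.37 and 0.27 RPKM in A10-FMT and at 10.31, 24.98 and 54.02 RPKM in STZ-A10 (log2 difference -4.25, SE 0.80, adjusted p = 0.0302). It averaged 0.490 ± 0.149 RPKM (SD, n = 3) in Con, 35.3 ± 37.2 in STZ and 31.0 ± 4.89 in Con-FMT, so A10-FMT was the one STZ-injected group at the Con level. In mice given AOS without STZ it had 11.07, 3.44 and 19.72 RPKM, so a level above Con was not confined to STZ-injected mice. Gdpd3 entered the test through STZ-A10 alone and overlaps the antisense gene Gm9967. Saa3, an acute phase protein of macrophages and fat (chr7:46711998-46715700), had 0.52, 3.0 and 3.77 against 182.17, 17.77 and 13.47 RPKM (-3.58, SE 0.74, adjusted p = 0.0348) and -2.42 without STZ-A10 replicate 1. Alox15, the lipoxygenase of resident macrophages and eosinophils, had 0.6, 3.76 and 1.64 against 9.13, 10.54 and 7.99 RPKM (-1.90, SE 0.38, adjusted p = 0.0348). Its mean of 9.22 ± 1.28 RPKM in STZ-A10 stood above 1.94 ± 0.682 in Con, 1.36 ± 0.653 in STZ and 3.63 ± 1.74 in Con-FMT, so here it was STZ-A10 that lay apart from the other groups.

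Npy, the neuropeptide of sympathetic nerves (chr6:49822710-49829507), was at 6.2, 8.23 and 10.04 RPKM in A10-FMT and was listed at 0 in all 3 STZ-A10 libraries (adjusted p = 0.0362). It entered the test through A10-FMT alone and was not tested where all 6 libraries had to reach the minimum. It was also listed at 0 in Con and was at 0.34, 0.17 and 10.89 RPKM in mice given AOS alone. Con-FMT averaged 2.84 ± 3.96 RPKM (SD, n = 3) and STZ 0.167 ± 0.289. Among gene models without a described function, Gm40902 had 13.45, 13.48 and 2.2 against 26.05, 42.73 and 36.32 RPKM (-2.01, adjusted p = 0.039; -1.29 without A10-FMT replicate 3), and Gm40892 had 3.31, 2.33 and 1.0 against 8.05, 17.47 and 23.06 RPKM (-2.38, adjusted p = 0.0369).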

How the data were processed

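Spleen mRNA of 18 ICR libraries in 6 groups was sequenced by the authors after oligo(dT) selection. The deposited table holds RPKM per gene, computed by the authors, with no counts. The study's methods name SOAPaligner, while the submitters' processing notes list Bowtie 0.12.2 and mm10 (GRCm38). Since RPKM are not counts, limma 3.58.1 (R 4.3.3, with trend) was fitted on log2(RPKM + 1) to all 18 libraries, 1 coefficient per group, for genes with RPKM of at least 1 in at least 3 of the 6 libraries compared. This left out 6951 genes and kept 12369. Genes passed at a Benjamini-Hochberg adjusted p under 0.05. Summed levels were compared by two-sided exact permutation tests of 3 against 3, whose smallest p is 0.1. On simulated data of 12369 genes the fit recovered 157 of 200 genes changed by a log2 of 1, with 16 false calls among the unchanged genes. The simulated noise was independent between genes and had no shifts shared by a whole library. These rates therefore do not carry over to the calls made here, which moved when single libraries were left out.

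The table had 19326 lines, of which 26 carried gene names turned into dates and 6 with repeated names were dropped. Depth was estimated from the step of low values in 1963 single-transcript genes (0.0685 to 0.0775 RPKM per read for a 1 kb gene), but the fit was weak (mean cosine 0.24 to 0.34, where 1 marks whole reads), so reads were not recovered. RPKM sums are shares, and a dominant transcript such as globin lowers all others. Positions are from GENCODE M21 and promoters from RefSeq.

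Genes named were the 10 largest in each direction among called, non-overlapping genes with a mean of at least 5 RPKM in the higher group, up to 4 members per list with the smallest p and that mean, 8 genes whose protein has an antibody named in the study (a list that does not hold all of the study's stained or blotted proteins), and Alb, Prss2 and Kap. Of those, the ones described are a selection, and further list members (among them Nr1d1, Errfi1, Cry2, Tsc22d3, Sgk1, Dbp, Per2, Hspa1a, Hspa1b, Tlr11, Tlr12, Tfrc, S100a8 and Pnpla2) were chosen after their values were seen. The comparison and the 37 gene lists (853 genes, 6 not in the table) were chosen with earlier results of these data known. Alternatives covered scaling, filters, pseudocount, trend, array weights, the libraries fitted, a replicate block and leaving out each library. Python 3.11.15 was used for positions, sequences and plots.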

Additional observations from a re-analysis of the deposited data

How the results depend on the processing

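The count of 782 calls moved with the processing: 318 genes passed after quantile normalization (257 of them shared), 1812 after rescaling to the sum outside globin genes, 428 without a filter, 468 with RPKM of at least 1 in all 6 libraries, 8641 with array weights, 5373 with gene-by-gene array weights (added after seeing the data), 3 with the 6 libraries alone and 0 at the study's threshold (adjusted p of 0.001 and log2 of 1), where the smallest adjusted p was 0.029. A pseudocount of 0.1, no trend, centring and a filter over all 18 libraries gave 758, 804, 670 and 770. Leaving out 1 library gave 0 to 4828 calls. The 4712 genes at an unadjusted p under 0.05 became 8955 with array weights, 2312 with the 6 libraries and 2036 to 6465 with 1 library left out. The cause of these moves was not tested, except that the 6-library fit has fewer samples to estimate spread from. Replicate numbers were not taken as pairs. Deviations of same-numbered libraries correlated at 0.223, -0.188 and 0.440, but differently numbered ones were not compared, so whether the numbers pair the samples was not settled. The fit with the replicate number as a block gave 753 calls, 622 of them shared.

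The difference in summed exocrine pancreas RPKM (824.3) ranged from -9036 to 6093 with 1 library left out, with -54.12 without STZ-A10 replicate 1, and that of the adipose list (10.67) from -13.85 to 43.61, with -5.685 and -5.925 without STZ-A10 replicates 2 and 3. Signs turned for Trp53 (0.0965 centred, -0.2234 to 0.0036 with 1 library left out), Bax (-0.0144 by quantile, -0.0911 to 0.1153 with 1 library left out, -0.0326 and -0.0595 among them), Hbb-b1 (-0.5579 by quantile, -0.3577 with array weights, -0.1743 to 0.6561 with 1 library left out, -0.0789 among them) and Hbb-b2 (-0.0672 with array weights). Among single genes in all settings, 1669 values kept direction and side of the threshold, 553 lost their call, 132 gained one and 11 turned. That the table gives no counts limits what can be said of genes under about 1 RPKM.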

Other observations

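Insulin transcripts, which the filter on low values kept out of the test, were present in libraries of transplanted mice. Ins2 was at 0.21, 19.97 and 1.58 RPKM in A10-FMT and at 2.26, 1.72 and 0.22 RPKM in Con-FMT, and was listed at 0 in every library of Con, A10, STZ and STZ-A10. Ins1 was at 0, 7.89 and 0.69 RPKM in A10-FMT and at 0.74, 0.46 and 0 RPKM in Con-FMT, and was listed at 0 elsewhere. The summed RPKM of the endocrine pancreas list was 0.87, 34.98 and 2.78 in A10-FMT and 0.36, 0.52 and 0.29 in STZ-A10 (two-sided exact permutation test, p = 0.1, the smallest possible). The A10-FMT library with the most insulin transcript, replicate 2, was also the one with the most exocrine pancreas transcript, 30504 RPKM. STZ-A10 libraries, with exocrine sums of 8202.4, 8809 and 12866 RPKM, had none of either insulin gene listed above 0. Nor had libraries of mice without STZ, with exocrine sums of 2738.5, 448.6 and 39.53 RPKM in Con and 69.54, 1065.4 and 657.88 RPKM in A10. Exocrine transcript without insulin transcript was thus not confined to STZ-injected mice. What gave the insulin transcripts was not tested.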
